A study of Mus musculus with 3 samples.

Results

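The genes described here are the receptors and transporters for glutamate and GABA (gamma-aminobutyric acid), the main excitatory and inhibitory transmitters of the brain. They were chosen by symbol, as all listed genes of the Gria, Grik, Grin, Grid, Grm, Gabr, Gabbr and Slc6a series with at least 50 unique molecular identifiers (UMIs, 1 per captured RNA molecule) over the 3 deposited matrices. Of 55357 listed genes, 70 symbols matched and 39 passed the minimum. The 39 included all 4 AMPA receptor genes, all 5 kainate receptor genes, 4 of 8 NMDA receptor symbols and 4 of 8 metabotropic glutamate receptor genes. On the GABA side they included 7 of 16 GABA-A subunit genes, 1 of 3 rho subunit genes, both GABA-B receptor genes and 3 of 4 GABA transporter genes. The symbol rule also took 7 of 18 other SLC6 symbols, carriers known mainly for other substrates: Slc6a6 carries taurine, Slc6a8 creatine and Slc6a9 glycine. The symbols matched take in 2 opposite-strand RNAs, Grin1os and Slc6a19os, neither of which reached the minimum. The member closest to the minimum was Grm7 with 67 UMIs, and the closest gene below it was Gabrb2 with 45.

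AMPA, kainate and NMDA receptors are ion channels opened by glutamate, whereas metabotropic glutamate receptors and GABA-B receptors act through G proteins and GABA-A receptors are chloride channels. Astrocytes take up glutamate and GABA from the space around synapses and carry several of these receptors. Oligodendrocytes and their precursors are known to express AMPA and kainate receptors. Migrating neuroblasts acquire neuronal receptors before they form synapses.

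Single cells came from the left perilesional cerebral tissue of male C57BL/6 mice, 6-8 weeks old, and were sequenced as 3 libraries, 1 for each group. One group was sham, a second had traumatic brain injury (TBI) followed by 3 days of phosphate-buffered saline (TBI+PBS), and the third had TBI followed by 3 days of interleukin-25, a cytokine (TBI+IL-25). The treatment text in the labels is the same for all 3 samples, sham included: 1 µg of IL-25 for each mouse, the first dose no later than 30 minutes after injury and then daily. The groups therefore rest on the sample titles. Neither the number of animals behind a library nor the sham procedure is given in the labels. With 1 library per group no difference has a replicate check. Every interval below is a 95% interval that covers counting error only, every ratio compares libraries rather than conditions, and no p-value is given.

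The libraries held 8939, 10643 and 14222 barcodes (sham, TBI+PBS and TBI+IL-25, the order used throughout) and 39536447, 58148289 and 61372408 UMIs. The TBI+IL-25 library stood apart in ribosomal RNA, which took 2.03% of its UMIs against 0.173% and 0.20%, and in its Cell Ranger version (7.2.0 against 7.1.0 for the others). Between 24 and 39 cell barcodes were shared by each pair of libraries, at most 0.366% of the smaller library. Cells were clustered without the member genes and clusters were named from fixed markers. Astrocyte-like cells numbered 3272, 4521 and 6684, microglia-like cells 4991, 4589 and 5531, oligodendrocyte-like cells 46, 214 and 646, and neuroblast-like cells 258, 264 and 141. All markers of each class had UMIs in that class in every library. A level in CPM is the number of UMIs of a gene for every 1000000 UMIs that a class had in a library. Neuron markers summed to between 3.54 and 16.4 CPM in the astrocyte-like, microglia-like and oligodendrocyte-like cells and to between 433 and 559.6 CPM in the neuroblast-like cells.

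As 3' UMIs count molecules rather than fragments, CPM were not scaled by transcript length. In all 3 libraries 18 members had their highest level of the 4 classes in astrocyte-like cells, 7 in oligodendrocyte-like cells and 4 in neuroblast-like cells. The highest class differed between libraries for 9 members. The remaining member, Slc6a13 (the GABA transporter GAT2), had 1, 2 and 2 UMIs in the 4 classes together. The 7 oligodendrocyte-like members were Gria4, Grik1, Grik2, Grm7, Gabrr2, Slc6a6 and Slc6a8, and the 4 neuroblast-like members included Grik3 and Slc6a15. No member was highest in microglia-like cells in all 3 libraries.

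**Figure D1:**
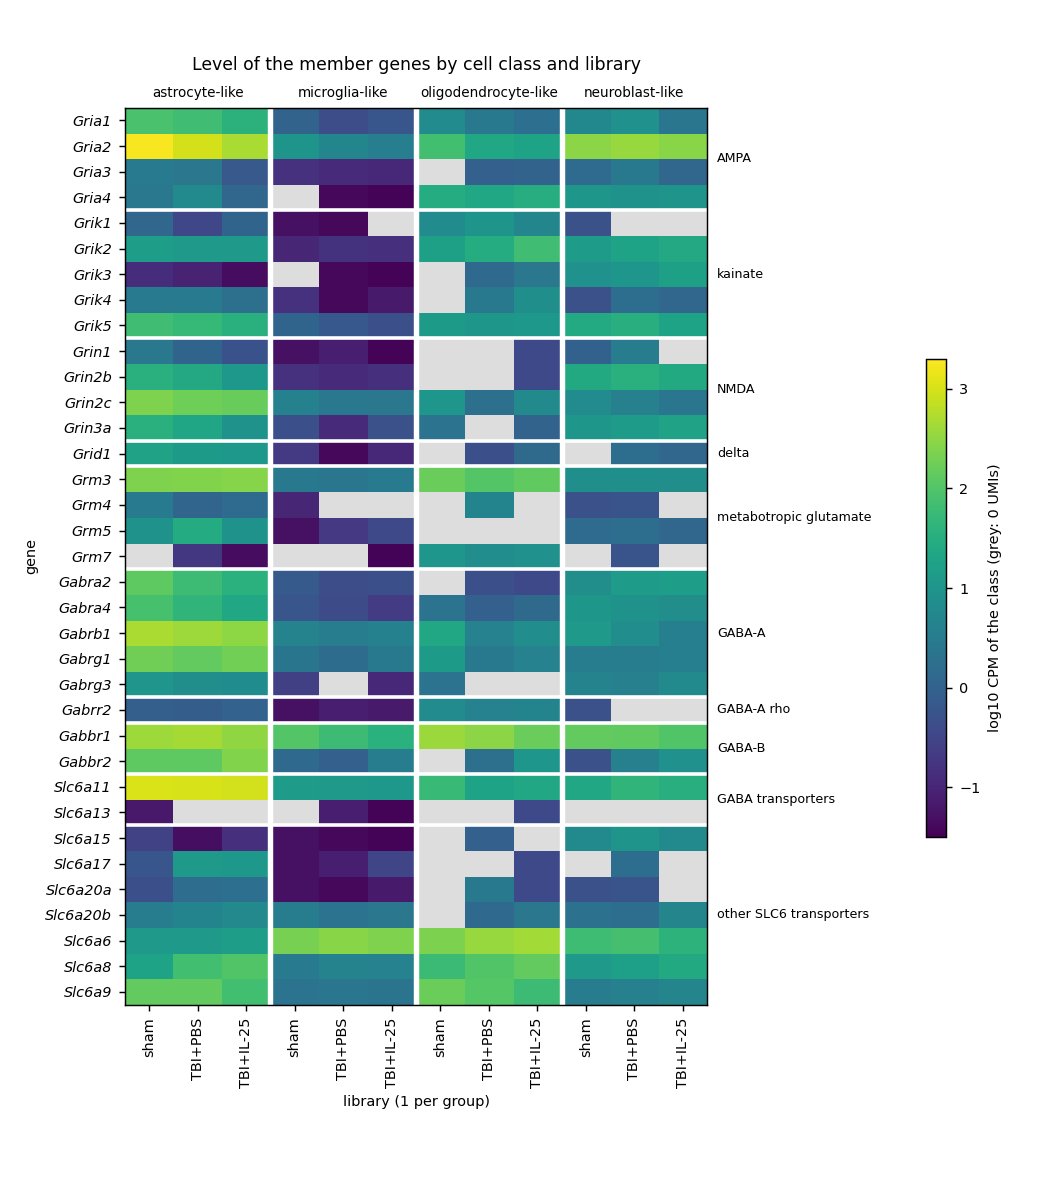
Level of 35 of the 39 genes (rows, grouped by family) in the 4 cell classes, with 1 column per library; colour is log10 of CPM and grey marks 0 UMIs. Gria2 and Slc6a11 in astrocyte-like cells were the highest of those drawn, and microglia-like cells had low levels of all members but Slc6a6 and Gabbr1.

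In astrocyte-like cells the 5 highest members included Gria2, Slc6a11, Gabrb1 and Gabbr1. Between TBI+PBS and sham the GABA transporter gene Slc6a11 had a ratio of 0.948 over the class, Gria2 and most other ionotropic receptor genes had ratios below 1, and Slc6a17, Slc6a8 and Grm5 were higher. Of 39 members, 34 had at least 20 UMIs over both libraries and were compared. A member was called when its ratio was at least 2-fold and its interval excluded 1. On that rule 5 were higher in TBI+PBS than in sham, beside 6.95% of all 16557 genes compared, and 4 were lower, beside 5.52%. The median log2 ratio was -0.24 for the members and -0.06 for all genes. Between TBI+IL-25 and TBI+PBS, which shares the TBI+PBS library with the first comparison, 1 of 34 was higher, beside 4.73% of all genes, and 6 were lower, beside 11.4%. The medians were then -0.20 for the members and -0.21 for all genes.

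The cluster makeup of the astrocyte-like class differed between the libraries. Cluster 6, led by Hapln1 and Ranbp3l, held 46.1% of the sham cells, 8.60% of the TBI+PBS cells and 8.00% of the TBI+IL-25 cells. Clusters 3, 8 and 9 held 3 sham cells in all. Cluster 3, led by Lif, Flnc and Fosl1, held 40.5% of the TBI+IL-25 cells and 4.29% of the TBI+PBS cells, whereas cluster 8, with Olig2 among its 10 leading genes, held 25.9% of the TBI+PBS cells and 2.86% of the TBI+IL-25 cells. Cluster 9 was led by Lcn2, Tgm1 and Gbp2. Members are therefore given over the whole class and, where a cluster had at least 20 UMIs over both libraries, also within clusters.

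Among the AMPA receptor genes, Gria2 encodes the subunit that makes these channels impermeable to calcium. Its window of 250 bases upstream of the RefSeq start (mouse build GRCm38.p6, 5′ to 3′) is shown because this gene had the highest level and a marked difference in level between libraries.
Gria2, chr3:80802836-80803085, minus strand: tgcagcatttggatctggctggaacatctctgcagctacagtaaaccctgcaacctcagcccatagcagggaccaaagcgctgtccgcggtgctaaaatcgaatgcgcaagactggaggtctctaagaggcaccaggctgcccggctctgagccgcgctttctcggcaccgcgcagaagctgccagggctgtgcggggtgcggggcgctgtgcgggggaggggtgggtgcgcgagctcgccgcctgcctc
None of the 4 motifs searched on both strands was in this window: TGANTCA (a loose form of the AP-1 site, with any base at N), TGACGTCA (CRE), ACGTG (hypoxia response element) and GGGCGG (Sp1). These were present in 6.75%, 1.55%, 16.6% and 32.7% of 32851 windows of the same length. RefSeq windows were at hand for 24 of the 39 members. A match is a match of letters only.

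Gria2 stood at 1803 CPM in sham (interval 1782 to 1825), 975 in TBI+PBS (962 to 989) and 498 in TBI+IL-25 (489 to 508). The 3 intervals did not overlap, and the level was highest in sham and lowest in TBI+IL-25. The ratio was 0.541 (0.531 to 0.551) for TBI+PBS against sham and 0.511 (0.499 to 0.523) for TBI+IL-25 against TBI+PBS, both just short of the 2-fold rule. At least 1 Gria2 UMI was found in 78.8%, 68.6% and 49.8% of astrocyte-like cells, and in 71.9%, 51.5% and 35.1% after each cell was thinned to 1000 UMIs, which left out 441, 655 and 1237 shallower cells. In microglia-like cells, which served as the background class, 1.02%, 0.728% and 0.335% of the thinned cells had a Gria2 UMI. Median depths before thinning were 4511, 4328 and 2951 UMIs for astrocyte-like cells and 3912, 4746 and 4733 for microglia-like cells.

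Between TBI+PBS and sham the Gria2 difference was smaller within clusters than over the whole class: in the 4 clusters with cells of both libraries, the ratio lay between 0.639 and 0.978. In cluster 6 the level was 2002, 1791 and 1616 CPM, and in cluster 2 it was 1785, 1502 and 1242 CPM. In clusters 3 and 9, nearly absent from sham, it was 346 and 342 CPM in TBI+PBS and 267 and 243 CPM in TBI+IL-25. Between TBI+IL-25 and TBI+PBS the level was lower in 6 of 7 clusters, with the lowest ratio in cluster 10 (0.421, 0.384 to 0.462), below that of the class, and the other 5 between 0.709 and 0.902. The exception was cluster 5, a shallow cluster with a median of 791 UMIs, where the ratio was 1.90.

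Gria4 had far fewer UMIs: 38, 125 and 26 in astrocyte-like cells, or 2.59, 5.97 and 1.2 CPM. TBI+PBS was thus 2.31-fold above sham (1.59 to 3.41) and TBI+IL-25 was at 0.201 of TBI+PBS (0.127 to 0.309). The 125 UMIs of TBI+PBS came from 67 cells, 30 of which held 70.4% of them, and 121 lay in cluster 2. When members were allowed among the clustering genes, 33 astrocyte-like cells formed a cluster with Gria4 among its leading genes. Of these, 3 came from sham, 30 from TBI+PBS and 0 from TBI+IL-25. Their part in the Gria4 ratios was not tested. In cluster 5, which held 17.1% and 19.3% of the astrocyte-like cells of the injured libraries, the TBI+PBS library had 1 Gria4 UMI against 2 for TBI+IL-25, and the second ratio turned to 1.36. Gria3 was at 2.93, 2.53 and 0.693 CPM, with a ratio of 0.274 (0.143 to 0.494) between TBI+IL-25 and TBI+PBS. In the 1 cluster with enough UMIs it was 0.583.

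NMDA receptors need the subunit encoded by Grin1, and this gene was near the lower limit in astrocyte-like cells. It had 38, 23 and 11 UMIs (2.59, 1.10 and 0.508 CPM), a ratio of 0.425 (0.242 to 0.731) in the first comparison and 0.463 (0.204 to 0.989) in the second. The glutamate-binding subunit gene Grin2b was at 35.9, 25.1 and 11.6 CPM and the modulatory subunit gene Grin3a at 35.9, 21.6 and 9.29 CPM. Both were highest in sham and lowest in TBI+IL-25. Their ratios of TBI+IL-25 to TBI+PBS were 0.465 (0.398 to 0.541) and 0.431 (0.363 to 0.510). Within clusters the Grin2b ratio was below 1 in 4 of 6 (0.448 to 1.86) and the Grin3a ratio in 5 of 6 (0.248 to 1.17). In TBI+PBS against sham Grin2b lay between 0.902 and 1.34 in 3 clusters, and Grin1 was at 0.621 in the 1 cluster compared. With size factors in place of class totals the Grin2b ratio was 0.546 and was not called. The kainate receptor gene Grik1 was called in both comparisons on 18, 7 and 24 UMIs, lower in TBI+PBS than in sham (0.273, 0.0963 to 0.685) and higher in TBI+IL-25 than in TBI+PBS (3.32, 1.39 to 9.12). No cluster held enough Grik1 UMIs.

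Metabotropic receptor genes followed a different order. Grm3, a receptor that lowers cyclic AMP, was at 238, 244 and 267 CPM. Its ratios were 1.03 (0.983 to 1.07) and 1.09 (1.05 to 1.13). Within clusters the second was above 1 in 7 of 7 (1.03 to 1.40). Grm5, which raises intracellular calcium through phospholipase C, was at 9.25 CPM in sham (7.76 to 10.9), 28.9 in TBI+PBS (26.7 to 31.3) and 8.92 in TBI+IL-25 (7.71 to 10.3). Only the TBI+PBS library stood high. The ratios were 3.13 (2.59 to 3.79) and 0.308 (0.261 to 0.363). Within clusters 2 and 6 the first ratio was 2.48 and 2.64. The second was below 1 in all 5 clusters compared (0.214 to 0.714), with the highest level in cluster 9 (67.4 and 31.9 CPM). Cluster 5, with 4 and 8 UMIs, was too thin to be among these 5 and had a ratio of 1.36. When members were allowed among the clustering genes, 47 cells, all of TBI+PBS, formed a cluster with Grm5 among its leading genes. Their part in the Grm5 ratios was not tested. Grm4 had 43, 24 and 33 UMIs and was lower in TBI+PBS than in sham (0.392, 0.227 to 0.660). In the 1 cluster compared the first ratio was 0.487 and the second 2.35.

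**Figure D2:**
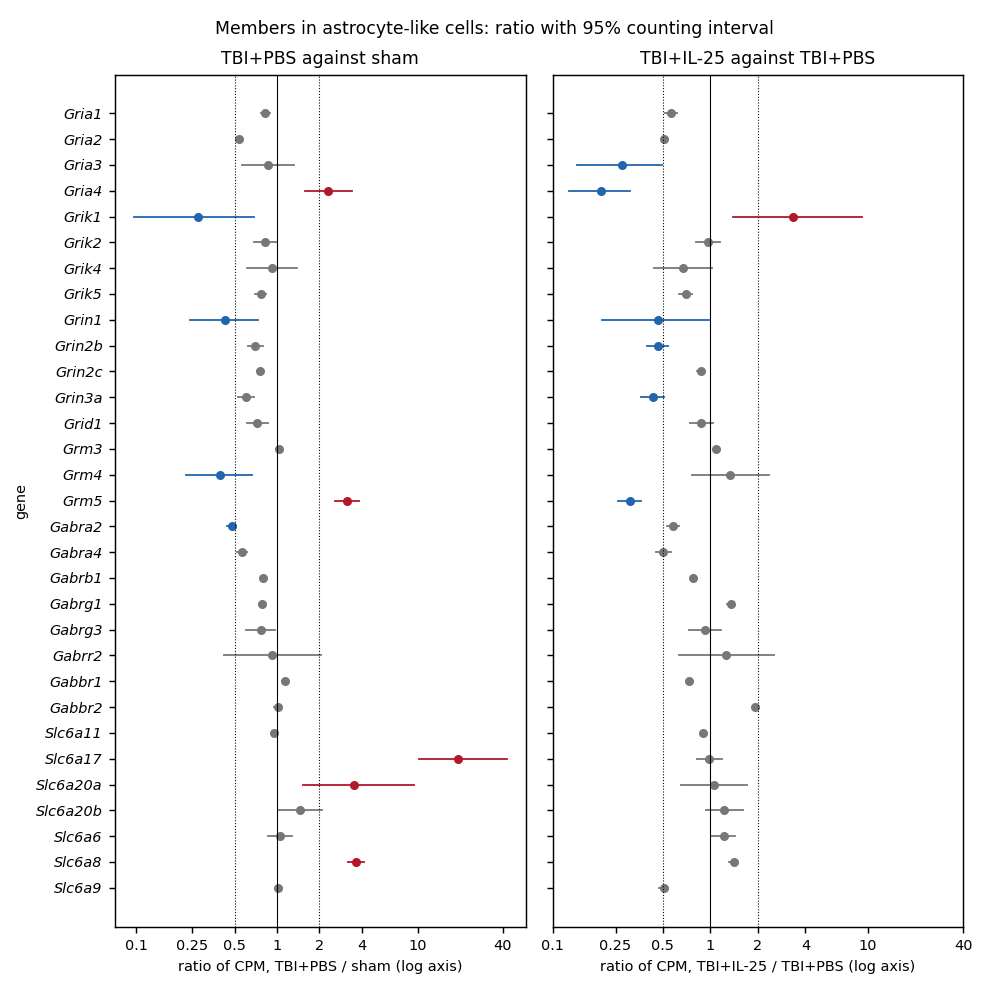
Ratio of CPM for 31 of the 34 members compared in astrocyte-like cells, TBI+PBS against sham (left) and TBI+IL-25 against TBI+PBS (right), on a log axis with 95% counting intervals; red and blue mark ratios of at least 2-fold higher or lower whose interval excludes 1. Slc6a17 stands at 19.4 on the left, and Gria4 at 0.201 and Grm5 at 0.308 are lowest with Gria3 on the right.

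GABA-A receptor channels are built from alpha, beta and gamma subunits, and astrocyte-like cells held UMIs of each kind. The alpha subunit gene Gabra2 was at 131, 62.3 and 36.1 CPM, highest in sham and lowest in TBI+IL-25, with a first ratio of 0.475 (0.443 to 0.510). Within the 3 clusters compared this ratio was 0.546 to 0.697, and within cluster 2 alone it was 0.641. The beta subunit gene Gabrb1 was at 497, 397 and 307 CPM, with ratios of 0.799 (0.774 to 0.825) and 0.774 (0.749 to 0.799). This direction was not kept within clusters. The first ratio was 1.19 (1.12 to 1.27) in cluster 2, 1.03 in cluster 6, 1.00 in cluster 10 and 0.792 in cluster 5, and the second was above 1 in 4 of 7 clusters (0.817 to 1.23). The family as a whole summed to 901, 658 and 571 CPM.

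The GABA-B receptor works as a dimer, in which the product of Gabbr1 binds GABA and that of Gabbr2 couples to the G protein. Both upstream windows (RefSeq, GRCm38.p6, 5′ to 3′) are shown because the levels of these partners differed in opposite directions; capitals mark matches to GGGCGG on either strand.
Gabbr1, chr17:37045716-37045965, plus strand: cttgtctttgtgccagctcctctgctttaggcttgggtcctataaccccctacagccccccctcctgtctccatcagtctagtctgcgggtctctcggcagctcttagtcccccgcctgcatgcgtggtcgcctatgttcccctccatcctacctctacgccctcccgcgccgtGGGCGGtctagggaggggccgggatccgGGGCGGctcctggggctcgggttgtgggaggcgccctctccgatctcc
Gabbr2, chr4:46991715-46991964, minus strand: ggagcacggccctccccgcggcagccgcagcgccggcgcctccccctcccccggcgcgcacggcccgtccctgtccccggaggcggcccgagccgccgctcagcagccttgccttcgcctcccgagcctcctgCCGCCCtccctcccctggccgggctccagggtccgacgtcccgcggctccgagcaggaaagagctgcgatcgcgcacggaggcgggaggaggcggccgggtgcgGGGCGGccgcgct
Each window held 2 such matches, and no other motif of the 4 was found in either. Gabbr1 and Gabbr2 were among 15 of the 24 members that had a match to GGGCGG in at least 1 window. Counted by window, 51.6% of the 31 member windows had such a match, beside 32.7% of all 32851 windows.

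Gabbr1 in astrocyte-like cells was at 394 CPM in sham (384 to 405), 444 in TBI+PBS (435 to 453) and 323 in TBI+IL-25 (315 to 330.5). Gabbr2 was at 127 (121 to 133), 128 (123 to 133) and 245 CPM (239 to 252). Gabbr1 was thus lowest and Gabbr2 highest in the TBI+IL-25 library. Gabbr2 made up 24.3%, 22.3% and 43.2% of the UMIs of the pair. Against TBI+PBS, the TBI+IL-25 ratio was 0.727 (0.704 to 0.750) for Gabbr1 and 1.92 (1.83 to 2.01) for Gabbr2. Neither reached 2-fold with class totals. Size factors in place of class totals raise both ratios, so whether Gabbr2 reaches 2-fold depends on the scaling. Within all 7 astrocyte-like clusters the interval of Gabbr1 lay below 1 (ratios 0.593 to 0.757) and that of Gabbr2 above 1 (1.89 to 3.20). Ribosomal RNA took 0.170% of the astrocyte-like UMIs of TBI+PBS and 3.09% of those of TBI+IL-25, and its part in these ratios was not tested.

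**Figure D3:**
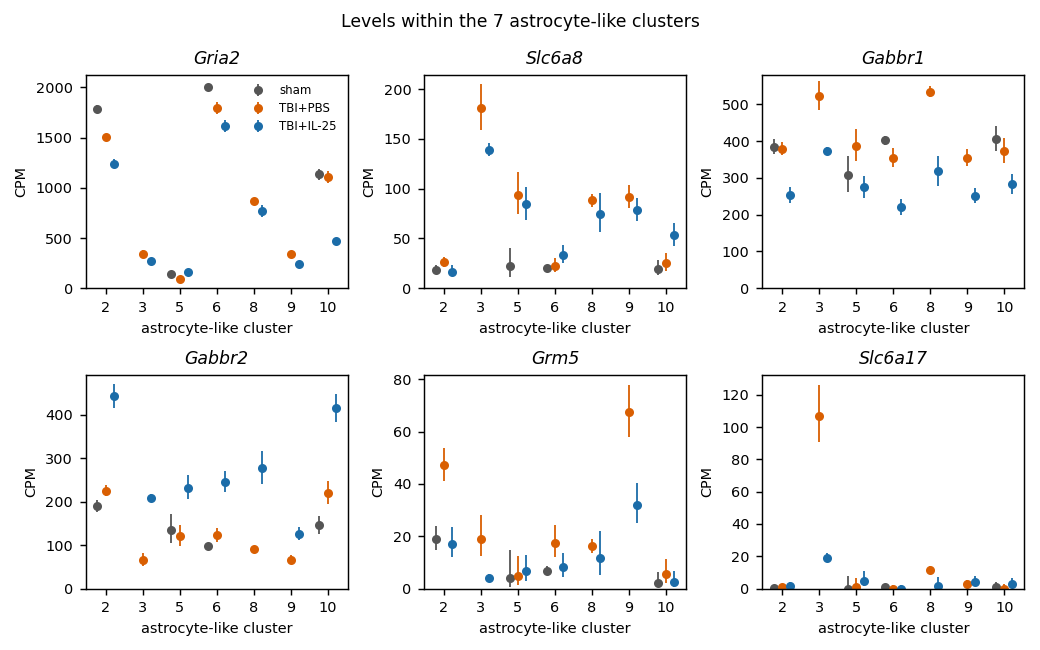
CPM of 6 members in each of the 7 astrocyte-like clusters (x axis) by library, with 95% counting intervals; clusters 3, 8 and 9 have no sham point because sham held 3 of their cells in all. Gabbr1 is lower and Gabbr2 higher in TBI+IL-25 than in TBI+PBS in every cluster, and Slc6a17 stands at 107 CPM in cluster 3 of TBI+PBS.

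The GABA transporter gene Slc6a11, which encodes the astrocyte carrier GAT3, was at 1082, 1026 and 923 CPM over the class. Its ratios were 0.948 (0.929 to 0.968) and 0.900 (0.883 to 0.917). Size factors in place of class totals raise the second, so its side of 1 over the class depends on the scaling. Most clusters ran the other way. The first ratio was 1.44 in clusters 6 and 10, 1.10 in cluster 2 and 0.722 in cluster 5, and the second was above 1 in 6 of 7 clusters (0.917 to 2.27). It also differed between clusters of 1 library, from 322 CPM in cluster 3 to 2818 in cluster 2 of TBI+PBS.

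Slc6a17 and Slc6a8 had the largest ratios of TBI+PBS to sham among the members compared in astrocyte-like cells. Slc6a17 encodes a carrier of neutral amino acids known from synaptic vesicles. RefSeq lists 2 starts for it, and both windows (GRCm38.p6, 5′ to 3′) are shown because it had the largest ratio and was the only member of the 24 with a match to TGANTCA, in capitals.
Slc6a17 window 1, chr3:107500741-107500990, minus strand: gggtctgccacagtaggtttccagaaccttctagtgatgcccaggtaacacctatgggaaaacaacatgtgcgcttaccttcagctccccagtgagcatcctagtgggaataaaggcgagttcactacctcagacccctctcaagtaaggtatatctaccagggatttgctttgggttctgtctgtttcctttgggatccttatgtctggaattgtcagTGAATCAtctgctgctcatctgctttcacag
Slc6a17 window 2, chr3:107518019-107518268, minus strand: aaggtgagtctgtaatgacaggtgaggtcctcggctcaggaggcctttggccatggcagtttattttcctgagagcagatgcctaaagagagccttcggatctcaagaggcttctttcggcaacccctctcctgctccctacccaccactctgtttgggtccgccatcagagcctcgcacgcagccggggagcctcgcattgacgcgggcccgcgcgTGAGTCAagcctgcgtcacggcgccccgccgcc
A match to this motif was present in 6.75% of all windows. Its middle base is free, and was A in window 1 and G in window 2. Slc6a17 had 9, 249 and 253 UMIs, or 0.612, 11.9 and 11.7 CPM, low in sham and alike in both injured libraries. The ratio of TBI+PBS to sham was 19.4 (10.1 to 42.9). The UMIs were concentrated in few cells: 119 of 4521 TBI+PBS cells held any, and 30 of them held 54.2%. Of the 249 UMIs, 146 lay in cluster 3 and 92 in cluster 8, which held 1 sham cell together, and in TBI+IL-25 cluster 3 held 230 of 253. In cluster 2 the counts were 2 in sham and 3 in TBI+PBS, with a ratio of 1.22. Within cluster 3 the level was 107 CPM in TBI+PBS and 19.2 CPM in TBI+IL-25.

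The creatine transporter gene Slc6a8 was at 19.6 CPM in sham (17.4 to 22), 71.5 in TBI+PBS (67.9 to 75.2) and 101 in TBI+IL-25 (96.4 to 105). Sham was lowest, and the intervals did not overlap. The ratios were 3.65 (3.21 to 4.15) and 1.41 (1.32 to 1.5). In cluster 2 the first ratio was 1.44, and over the 4 clusters with both libraries it was 1.13 to 4.16. The second ratio was below 1 in 5 of 7 clusters (0.639 to 2.10), against 1.41 over the class, and in cluster 3 it was 0.768 (0.672 to 0.882). The levels were 181 CPM in cluster 3, 88.4 in cluster 8 and 92.0 in cluster 9 of TBI+PBS, against 26.2 in cluster 2 and 22.5 in cluster 6. Slc6a20a, a carrier of proline, had 7, 35 and 38 UMIs and a first ratio of 3.51 (1.54 to 9.36). Its near-identical neighbour Slc6a20b can share reads with it, so this value is uncertain. No cluster had enough Slc6a20a UMIs for that comparison. The 35 UMIs of TBI+PBS came from 35 cells. Over the 3 libraries together Slc6a20a stood at 242 CPM in fibroblast-like and 64.5 in choroid plexus-like cells, beside 1.40 in astrocyte-like cells. The part of RNA from such cells in the ratio was not tested.

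Microglia-like cells held UMIs of most members, but few stood above the range of the astrocyte markers in the same cells. Whether that range reflects RNA from other cells was not tested. The 10 astrocyte markers stood in microglia-like cells at 0.836% to 7.70% of their astrocyte-like level in sham, at 0.673% to 4.62% in TBI+PBS and at 1.06% to 3.84% in TBI+IL-25. The medians of these markers were 1.22%, 1.06% and 1.36%, near the lower end of each range. Of 23 members that could be set against that range in every library, only Gabbr1 and Slc6a6 lay above it in all 3. Slc6a8 lay above it in sham and TBI+PBS, at 14.6% and 6.30% of its astrocyte-like level. In TBI+IL-25 Slc6a8 stood at 4.27%, with an interval that reached into the range. Gria2, at 0.533%, 0.514% and 0.725% of its astrocyte-like level, lay below the range. Slc6a11, at 14.5, 12.7 and 11.7 CPM, was the third highest member of the class.

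**Figure D4:**
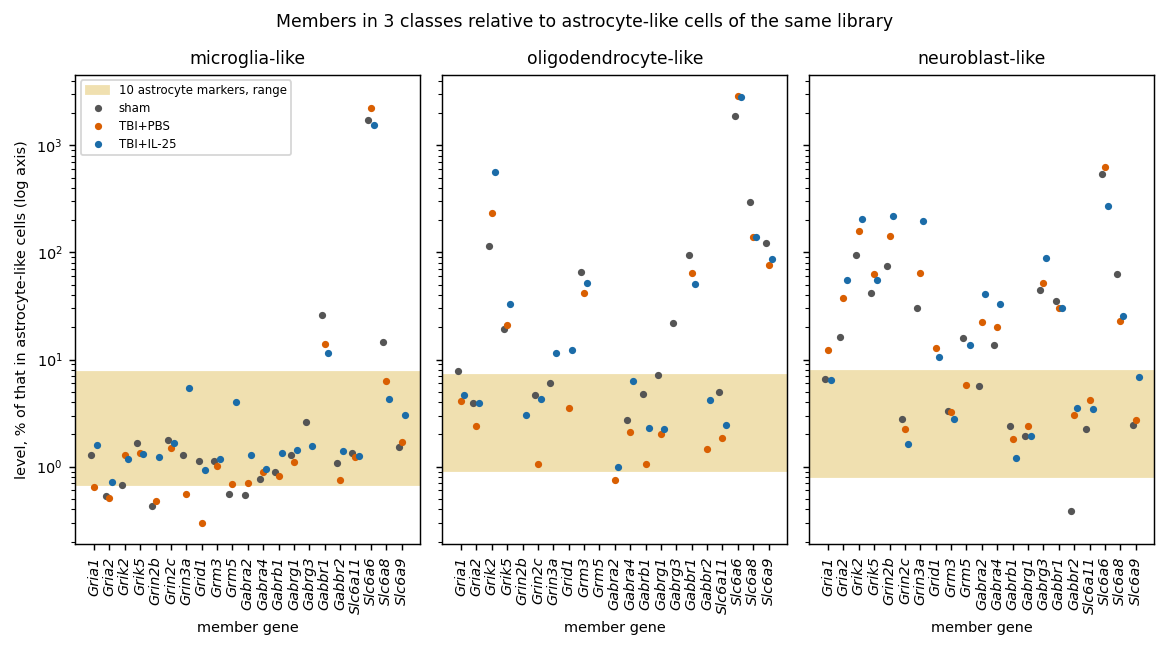
Level of 21 of the 23 members in microglia-like, oligodendrocyte-like and neuroblast-like cells as a percentage of the level in astrocyte-like cells of the same library (log axis), 1 point per library, with the range of 10 astrocyte markers over the 3 libraries shaded; values of 0 are not drawn. In microglia-like cells Gabbr1 and Slc6a6 lie above the shaded range in all 3 libraries.

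Slc6a6, the taurine transporter, was the highest member in microglia-like cells, at 205 CPM in sham (198 to 211), 276 in TBI+PBS (269 to 283) and 234 in TBI+IL-25 (228 to 239). Its ratios were 1.35 (1.30 to 1.40) and 0.846 (0.818 to 0.875). After thinning, 18.7%, 23.2% and 20% of microglia-like cells had a Slc6a6 UMI, against 1.06%, 1.27% and 1.30% of astrocyte-like cells, and before thinning the shares were 50.4%, 66.9% and 59.5% against 3.82%, 4.45% and 4.02%. Gabbr1 was at 102 CPM (98.0 to 107), 62.2 (59.1 to 65.3) and 36.7 (34.5 to 39), highest in sham and lowest in TBI+IL-25. The ratios of Gabbr1 were 0.607 (0.568 to 0.649) and 0.590 (0.545 to 0.639). It differed between clusters. Clusters 0 and 7, which held 60.3% and 29.7% of sham microglia-like cells, stood at 106 and 101 CPM in sham and at 103 and 98.9 CPM in TBI+PBS. Cluster 15, led by Adam8, Ch25h and Il1rn and absent from sham, stood at 18.6 CPM in TBI+PBS and 6.17 CPM in TBI+IL-25. Against TBI+PBS, Gabbr1 in TBI+IL-25 was lower in 7 of 8 clusters (0.331 to 1.2).

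On the 2-fold rule, 0 of 17 members compared were higher in TBI+PBS than in sham in microglia-like cells, beside 6.66% of all genes, and 1 was lower, beside 7.12%. That member, Gria1, rested on 21 and 11 UMIs (0.408, 0.178 to 0.886). It was not called with doublets kept, with free RNA subtracted, with a minimum of 50 UMIs or within cluster 0. In TBI+IL-25 against TBI+PBS, 1 of 16 was higher, beside 5.77%, and 0 were lower, beside 4.24%. The higher one was Gabbr2, with 24 and 96 UMIs (3.59, 2.28 to 5.88). At 0.749% and 1.40% of its astrocyte-like level it lay within the range of the astrocyte markers, and it was not called once free RNA was subtracted.

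In oligodendrocyte-like cells, Slc6a6, Gabbr1, Grm3 and Slc6a9 were among the 5 highest members, and AMPA and kainate receptor genes were present in other proportions than in astrocyte-like cells. The sham library held only 46 of these cells, so that its intervals are wide. Their oligodendrocyte markers summed to 73248, 59254 and 34801 CPM and their astrocyte markers to 1083, 327 and 687 CPM, with median depths of 10230, 8400 and 3916 UMIs. The part of these differences in the member values was not tested. Of 23 members set against the astrocyte marker range, 8 lay above it in all 3 libraries, among them Gabbr1, Grik2, Grm3, Slc6a6, Slc6a8 and Slc6a9.

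Slc6a6 stood at 221 CPM in sham (181 to 268), 359.8 in TBI+PBS (335 to 386) and 424 in TBI+IL-25 (401 to 449). Gabbr1 had the opposite order, at 374 (320.4 to 434), 287 (265 to 311) and 163 CPM (148 to 178). The glycine transporter gene Slc6a9 was likewise highest in sham, at 169.7, 108 and 62.9 CPM. Grm3, at 157, 103 and 137 CPM, was lowest in TBI+PBS, and its sham and TBI+IL-25 intervals overlapped (123 to 197 and 124 to 152).

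Gria4 was at 30.1 CPM in sham (16.4 to 50.5), 23.5 in TBI+PBS (17.4 to 30.9) and 30.9 in TBI+IL-25 (24.8 to 38.1), with overlapping intervals. It was well above its astrocyte-like level of 1.2 to 5.97 CPM. Gria4 therefore made up 28.0%, 46.3% and 58.0% of AMPA receptor UMIs in these cells, on 14, 50 and 87 UMIs, and Gria2 66.0%, 46.3% and 36.7%. In astrocyte-like cells Gria2 made up 95.3%, 92.7% and 92.5% and Gria4 at most 0.567%. In neuroblast-like cells Gria2 made up 94.3%, 94.8% and 95.4%. The share of Gria2 in oligodendrocyte-like cells also takes in any astrocyte RNA, and at 2.40% to 3.93% of its astrocyte-like level Gria2 lay within the range of the astrocyte markers in each library.

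**Figure D5:**
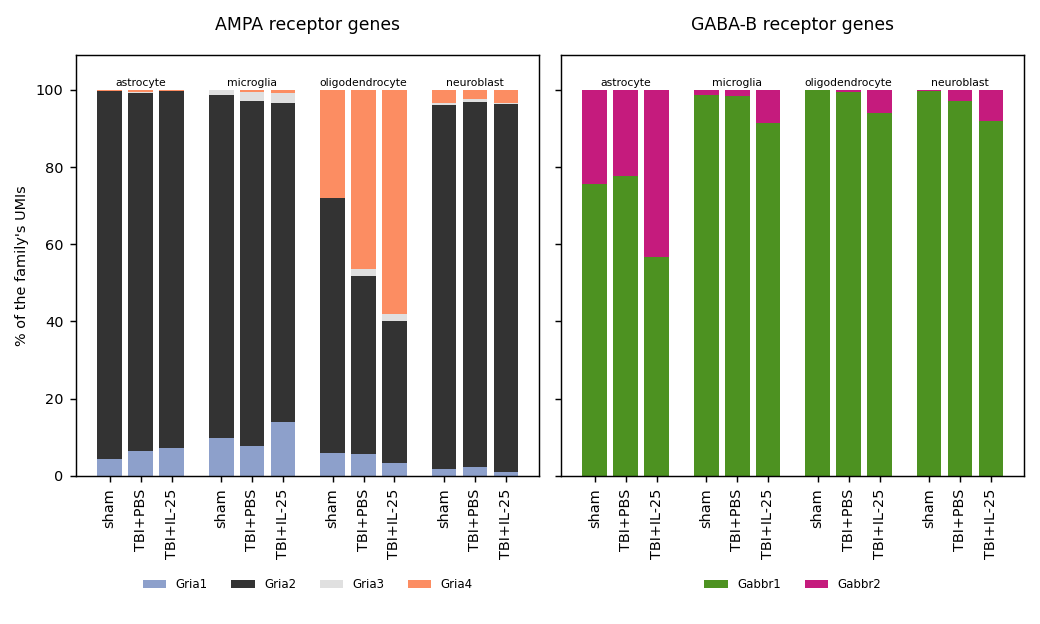
Share of each gene in the UMIs of the AMPA receptor family (left) and of the GABA-B pair (right), as stacked percentages by cell class and library. Gria4 takes 28.0% to 58.0% in oligodendrocyte-like cells and at most 0.567% in astrocyte-like cells, and Gabbr2 takes its largest share of each class in TBI+IL-25.

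Between TBI+PBS and sham, 0 of 15 members compared were higher in oligodendrocyte-like cells, beside 4.60% of all genes, and 3 were lower, beside 1.96%. These were Gabrb1 (11 and 9 UMIs, ratio 0.179, 0.0654 to 0.474), Gria2 (33 and 50 UMIs, 0.331, 0.209 to 0.530) and Slc6a11 (25 and 41 UMIs, 0.358, 0.213 to 0.614). The Gria2 UMIs came from 10 sham and 25 TBI+PBS cells, and the Slc6a11 UMIs from 5 and 20. The intervals take each UMI as independent and do not cover this spread between cells. All 3 had their highest level in astrocyte-like cells, and the summed astrocyte markers were lower in the same direction (1083 and 327 CPM). The part of astrocyte RNA in these 3 ratios was not tested. None of the 3 was called with doublets kept, with each cell assigned by its marker score or with free RNA subtracted, and the Slc6a11 ratio turned to 1.53 with the marker score. Between TBI+IL-25 and TBI+PBS, 4 of 19 were higher, beside 6.05%, and 0 were lower, beside 6.90%. The kainate receptor gene Grik2 rested on the most UMIs (8, 62 and 190) and was at 17.2, 29.1 and 67.5 CPM, with a ratio of 2.32 (1.73 to 3.15). Gabbr2 (4 and 29 UMIs, 5.49, 1.93 to 21.5), Grin2c (4 and 18 UMIs, 3.41, 1.12 to 13.9) and Grik4 (6 and 22 UMIs, 2.78, 1.09 to 8.38) had wide intervals. With a minimum of 50 UMIs 1 of the 4 was left, and after subtraction of free RNA 2.

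Neuroblast-like cells had Gria2, Gabbr1 and Slc6a6 among their 5 highest members. Gria2 was at 292 CPM in sham (269 to 316), 369 in TBI+PBS (341 to 398) and 278 in TBI+IL-25 (243 to 317), so that TBI+PBS was highest and the other intervals overlapped. Gabbr1 stood at 139, 135 and 98.1 CPM, and Slc6a6 at 64.1, 77.8 and 40.5 CPM. Of 23 members, 11 lay above the astrocyte marker range in all 3 libraries.

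No member passed the 2-fold rule in neuroblast-like cells. In TBI+PBS against sham 0 of 22 were higher, beside 1.42% of all genes, and 0 were lower, beside 1.23%. In TBI+IL-25 against TBI+PBS 0 of 18 were higher, beside 1.96%, and 0 were lower, beside 4.86%. The median log2 ratio was 0.34 for the members and 0.00 for all genes in the first comparison, and -0.34 against -0.10 in the second. A count of 0 in these cells allows a level of up to 1.48, 1.68 and 3.68 CPM (3 UMIs).

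Gabbr1 was lower in TBI+IL-25 than in TBI+PBS in all 4 classes, with ratios of 0.727 in astrocyte-like, 0.590 in microglia-like, 0.567 in oligodendrocyte-like (0.501 to 0.641) and 0.728 in neuroblast-like cells (0.558 to 0.941). Of 8 members with enough UMIs in all 4 classes, Gabbr1 and Gria2 were the ones below 1 in each, beside 26.6% of the 8614 genes that could be compared this way, and none was above 1 in each, beside 17.1%. Gria2 lay below the range of the astrocyte markers in microglia-like cells and within it in oligodendrocyte-like cells. In TBI+PBS against sham, Slc6a6 and Slc6a8 of 9 members were above 1 in all 4 classes, beside 10.2% of 8196 genes, and Gabrb1 was below 1 in all, beside 8.46%. Of the members named here, Gabbr1 and Slc6a6 alone lay above the astrocyte marker range in all 3 other classes and all 3 libraries. Gabbr2, chosen for this after its values were seen, was above 1 in TBI+IL-25 against TBI+PBS in the 3 classes where it was compared. In microglia-like and oligodendrocyte-like cells it lay within the astrocyte marker range, at 1.40% and 4.20% of its astrocyte-like level in TBI+IL-25. The summed astrocyte markers were higher in the same direction, at 322 and 436 CPM in the former and 327 and 687 CPM in the latter. In neuroblast-like cells it had 7 UMIs in each of these libraries, which gave 3.92 and 8.59 CPM.

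Genes that work with these receptors and carriers were described as well, in a list of 21 genes of transmitter metabolism and vesicle loading and a list of 32 auxiliary subunits and scaffolds. In astrocyte-like cells, 3 of 16 metabolic genes compared were higher in TBI+PBS than in sham, beside 6.95% of all genes, and 0 were lower, beside 5.52%, with a median log2 ratio of 0.00. In TBI+IL-25 against TBI+PBS 0 of 17 were higher, beside 4.73%, and 0 lower, beside 11.4%. Slc38a2, a glutamine carrier, was at 26.4 CPM in sham and 179 CPM in TBI+PBS (6.77-fold, 6.09 to 7.53). The neutral amino acid carrier Slc1a4 was at 153 CPM in sham and 371 CPM in TBI+PBS (2.42-fold, 2.31 to 2.54). Of 26 auxiliary genes, 5 were higher and 0 lower in TBI+PBS than in sham, beside the same 6.95% and 5.52%, with a median of -0.11. In TBI+IL-25 against TBI+PBS 2 of 27 were higher and 3 lower, beside 4.73% and 11.4%, with a median of -0.16. Neto2, an auxiliary subunit of kainate receptors, was called higher in both comparisons. It was at 5.24 CPM in sham and 25 CPM in TBI+PBS (4.76-fold, 3.75 to 6.13). Neto2 was at 64.0 CPM in TBI+IL-25 (2.56-fold above TBI+PBS, 2.32 to 2.84). The scaffold gene Dlg4 was at 92.7 CPM in TBI+PBS and 40.1 CPM in TBI+IL-25 (0.433, 0.399 to 0.469).

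In microglia-like cells 0 of 13 metabolic genes were higher in TBI+PBS than in sham and 2 lower, beside 6.66% and 7.12% of all genes. Glul, which makes glutamine from glutamate, was at 1399.7 CPM in sham and 585 in TBI+PBS (0.418, 0.409 to 0.426) in these cells. The glutamate transporter gene Slc1a3, an astrocyte marker as well, was at 334 and 158 CPM (0.473, 0.454 to 0.492) in the same cells. The summed astrocyte markers there were 539 and 322 CPM, but Slc1a3 itself makes up much of that sum. The sum is therefore no separate comparison for this gene. In oligodendrocyte-like cells the other main glutamate transporter gene Slc1a2 was at 363, 63.8 and 254 CPM. The summed astrocyte markers had the same order, but Slc1a2 is part of that sum. Of 15 auxiliary genes compared in oligodendrocyte-like cells, 5 were higher and 2 lower in TBI+IL-25 than in TBI+PBS. This stood beside 6.05% and 6.90% of all genes, with medians of 0.80 and -0.01. In TBI+PBS against sham 1 of 12 was higher and 0 lower, beside 4.60% and 1.96%. The part of astrocyte RNA in these counts was not tested. In neuroblast-like cells Slc17a6, a vesicular glutamate transporter gene, had 5, 24 and 0 UMIs, and Slc32a1, the vesicular GABA transporter gene, was at 67.2 CPM in TBI+PBS and 33.1 CPM in TBI+IL-25 (0.493, 0.312 to 0.754).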

How the data were processed

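The deposited files hold raw UMI counts per gene and barcode for 3 libraries of a 10x Chromium 3' kit, not normalized. The authors counted with Cell Ranger, in version 7.1.0 for sham and TBI+PBS and 7.2.0 for TBI+IL-25, per the file headers. Seurat 4.4.0, bcl2fastq 5.0.1, Cell Ranger 7.2.0 and the build GRCm39 are named in the submitters' processing notes. Identifiers and symbols were used as deposited, and no coordinates of that build are given.

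The cell filter required 500 UMIs and 300 genes and allowed up to 20% mitochondrial UMIs. Scrublet in scanpy 1.11.5 scored doublets per library. Because its automatic threshold marked only 3 sham cells, a score above 0.2, set after the scores were seen, removed 222, 299 and 636 cells and left 8699, 10301 and 13531. Cells were clustered jointly on 2000 variable genes, members left out, with 30 principal components, 15 neighbours and Leiden resolution 1 (leidenalg 0.10.2), without integration. Clusters were named "-like" from fixed marker lists of which at least 3 had to be present. Cluster 5 is shallow but has the astrocyte marker Aldoc among its 10 leading genes.

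UMIs were summed per class and library. Intervals are exact Poisson for CPM, exact conditional binomial for ratios and Clopper-Pearson for shares, at 95%. A sum of 3 UMIs, taken as the limit that a count of 0 allows (the intervals, being 2-sided, reach higher), was 0.107 to 6.45 CPM. The ratio and call rule was run on simulated Poisson counts, the model that the intervals assume. These counts hold no variation between cells or between libraries, so the run cannot show how the rule behaves under such variation. The named members are, in each class, the 5 highest by mean CPM and up to 5 called higher and lower per comparison, and of the partner lists up to 2 each. Some members enter the counts but are not reported by name here. Members, lists and markers were chosen with earlier results of these data known. Promoter windows are RefSeq's (GRCm38.p6).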

Additional observations from a re-analysis of the deposited data

Results flagged for a closer look

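In cells outside the 4 classes, 3 members had at least 20 UMIs and a counting interval wholly above 2 times their highest level in the 4. Each value is a CPM over the 3 libraries together. Slc6a20a stood at 559 CPM in cluster 25, which had all pericyte markers but was led by the smooth muscle genes Myh11 and Acta2 and is left unnamed. It was at 242 CPM in fibroblast-like cells, 64.5 in choroid plexus-like cells and 23.6 in endothelial-like cells, beside 1.40 in astrocyte-like cells, its highest of the 4 classes. Slc6a6 stood at 1347 CPM in endothelial-like cells, beside 381 in oligodendrocyte-like cells. Slc6a13, the member with at most 3 UMIs in the 4 classes of any library, stood at 507 CPM in fibroblast-like cells on 214 UMIs from 55 cells. Further members lay above the 4 classes on fewer UMIs or by less, such as Gria3 at 37.9 CPM (21.7 to 61.6) on 16 UMIs in fibroblast-like cells, beside 1.94 in neuroblast-like cells, and Slc6a17 at 30.8 CPM in fibroblast-like cells, beside 8.92 in astrocyte-like cells.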

How the results depend on the processing

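The 16 counts of members called and 24 ratios of called members were recomputed under 10 alternatives. Of the recomputed counts 120 stayed within 1.5 times the reported one and 32 did not. Of the recomputed ratios 202 stayed within the reported counting interval on the same side of 1, 22 left it on the same side and 3 turned. A resolution of 0.5, a minimum of 1000 UMIs per cell, or members allowed among the clustering genes moved none of them past these limits. With median-of-ratios size factors, astrocyte-like members in TBI+IL-25 against TBI+PBS were 2 higher and 3 lower. With cells weighed equally, microglia-like members in that comparison were 1 lower, neuroblast-like members 1 higher and 3 lower, and neuroblast-like members in TBI+PBS against sham 2 higher. With each cell assigned by its marker score, microglia-like members were 2 higher and 7 lower in TBI+PBS against sham and 0 higher and 3 lower in TBI+IL-25 against TBI+PBS, oligodendrocyte-like members 0 lower in the first and neuroblast-like members 1 higher in the second. With doublets kept, microglia-like and oligodendrocyte-like members were 0 lower and neuroblast-like members 1 higher in the first, and neuroblast-like members 2 higher and 1 lower in the second. A minimum of 50 UMIs gave 0 higher in astrocyte-like and 1 higher in oligodendrocyte-like cells in the second, and 0 lower in microglia-like cells in the first. Subtracting free RNA gave 2 higher in astrocyte-like, 0 higher in microglia-like, 2 higher in oligodendrocyte-like and 2 lower in neuroblast-like cells in the second, and 0 lower in microglia-like, 0 lower in oligodendrocyte-like and 1 higher in neuroblast-like cells in the first. Within 1 cluster, astrocyte-like members were 2 higher and 1 lower in the first and 0 higher and 1 lower in the second, with fewer cells and members compared, and microglia-like members 0 lower in the first. Ratios that turned were those of Slc6a11 in oligodendrocyte-like cells with the marker score (1.53) and of Gria4 and Grm5 in astrocyte-like cells within cluster 5 (1.36 each); the causes were not tested. Oligodendrocyte-like and neuroblast-like cells were 1 cluster each, so the last alternative gave no other value there. Subtracting free RNA left no UMIs in the library divided by, and so no ratio, for Gabbr2 in microglia-like and oligodendrocyte-like cells and Grin2c in oligodendrocyte-like cells in the second comparison and for Gria1 in microglia-like cells in the first. No paired analysis was possible because each group has 1 library, and for the same reason no replicate could be left out.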
